A study of Mus musculus with 8 samples.

Results

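Arachidonic acid is cut from membrane phospholipids by phospholipases A2 and turned into signalling lipids along a pair of branches. Cyclooxygenases (prostaglandin-endoperoxide synthases) and terminal synthases make prostaglandins and prostacyclin, while the lipoxygenase encoded by Alox5, with its membrane partner encoded by Alox5ap, makes leukotrienes. Prostaglandins act through receptors on nearby cells, are inactivated by a dehydrogenase, and are known for pain, swelling and bone loss in inflamed joints. Leukotrienes are made largely by neutrophils, macrophages and mast cells.

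The genes described are Ptgs1, Ptgs2, Ptges, Ptgis, Ptger2, Ptger4, Hpgd, Alox5, Alox5ap and Pla2g4a. They were measured through the probe sets of the deposited array table whose platform annotation names that gene and no other. This gave 14 of the 45037 probe sets other than controls, for 9 of the 10 genes and out of 18193 genes in all. No probe set was annotated to Ptgs1, the constitutive cyclooxygenase, which is not analysed here. Each gene is given as the mean of its probe sets.

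The samples were lumbar intervertebral discs of female BALB/c mice, with total RNA from 6 pooled discs in each. The immunized group (5 samples) came from mice injected on days 0, 21 and 42 with cartilage proteoglycan (100 µg of protein) and 2 mg of an adjuvant, dimethyldioctadecylammonium bromide (DDA), a model of spondyloarthropathy. The naive group (3 samples) came from untreated mice matched for age, so the adjuvant and the proteoglycan cannot be told apart. The titles call the replicates biological, and the descriptions of immunized replicate 1 and naive replicate 3 each join 2 sample numbers. Chondrocyte marker genes were well expressed: all 10 had a probe set at 8 or more (log2) on its lowest array, as did 7 of 8 nucleus pulposus and notochord markers. This level was not particular to disc markers. It was reached by 8 of 8 fibroblast, 7 of 8 neutrophil, 8 of 12 macrophage, 5 of 6 megakaryocyte and platelet and 4 of 5 erythroid markers. It was reached by 1 of 9 mast cell and 0 of 11 keratinocyte markers. Of all probe sets taken singly, controls included, 31.9% reached it. A marker gene was counted by its highest probe set, so that share is not a like background for these counts.

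Each value is a gene's log2 expression after the median of each of its probe sets over the arrays was set to 0 in the deposited table. So no gene's level can be set against that of another gene, and a step of 1 stands for a 2-fold change. Immunized replicate 2 stood apart over the whole array. Across the 18193 genes its centred values correlated at 0.03, -0.31, -0.11 and -0.48 with immunized replicates 1, 3, 4 and 5. With naive replicates 1 to 3 they correlated at -0.20, 0.23 and 0.30. When immunized replicate 2 was left out, 16.5% of all genes were called, against 9.14% with all samples, and 5 of the 9 genes described here, against 4. Differences are immunized minus naive, with limma's standard error (SE), and adjusted p is limma's, by Benjamini-Hochberg over all 18193 genes with a threshold of 0.05. In bulk tissue, fewer cells of a type and less RNA per cell cannot be told apart.

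In immunized discs the prostaglandin E2 receptor genes Ptger2 and Ptger4 rose, by 3.09-fold and 2.30-fold, and Alox5ap rose by 2.19-fold. Ptgis, which encodes prostacyclin synthase, fell to 0.563 of its naive level. Ptgs2 averaged 2.22-fold higher but varied so widely among immunized samples that it did not pass, and Alox5, Pla2g4a, Ptges and Hpgd did not pass either. Thus 3 of the 9 measured genes rose and 1 fell, where 4.46% of all genes rose and 4.68% fell (9.14% in either direction). At an unadjusted p under 0.05 the 9 genes held 5 that were higher and 1 that was lower, beside 12.9% and 18.2% of all genes. Of the 14 probe sets tested singly, 4 rose and 1 fell, beside 3.3% and 2.89% of all probe sets (6.19% in either direction).

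**Figure D1:**
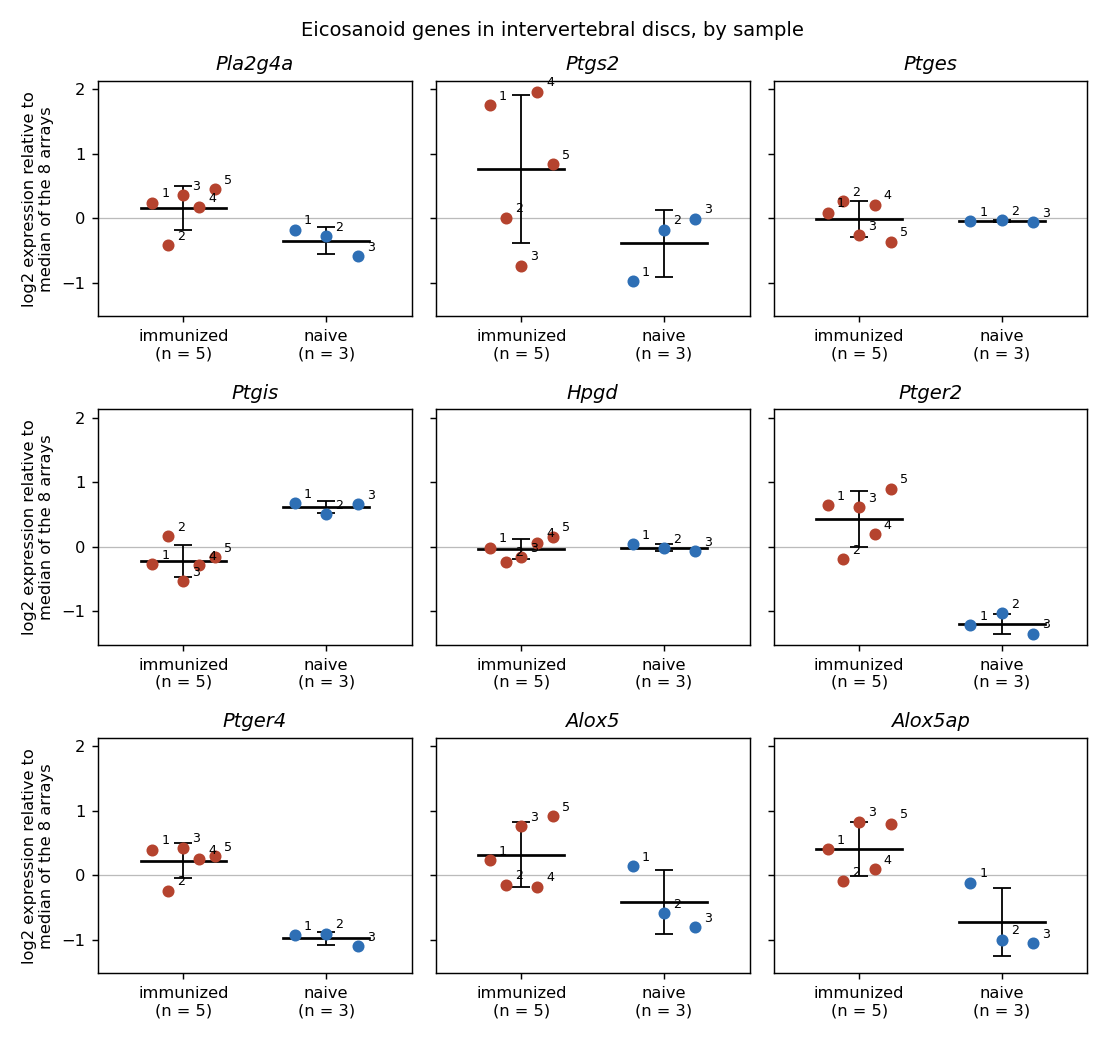
Each panel plots a gene's log2 expression (mean of its probe sets, the median of each over the 8 arrays set to 0) in 5 immunized samples (red, left) and 3 naive samples (blue, right), with replicate numbers beside the points, the mean as a line and the SD as a bar. The groups are apart in Ptger2, Ptger4 and Ptgis, barely apart in Alox5ap and overlapping in the other genes.

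Prostaglandin E2 signals through Ptger2 and Ptger4 by raising cyclic AMP. Ptger2 lay at 0.65, -0.19, 0.61, 0.19 and 0.90 in immunized replicates 1 to 5, against -1.21, -1.02 and -1.34 in naive replicates 1 to 3. Every immunized sample lay above every naive sample, and immunized replicate 2 was the lowest of its group. The difference was 1.63 ± 0.23 (SE; adjusted p = 0.0118 in limma), with a 95% interval of 2.16-fold to 4.40-fold.

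Ptger4 lay at 0.40, -0.24, 0.43, 0.25 and 0.29 in immunized replicates 1 to 5, against -0.93, -0.90 and -1.10 in naive replicates 1 to 3. Immunized replicate 2 lay apart from the other 4 immunized samples, and above the naive samples. The difference was 1.20 ± 0.15 (SE; adjusted p = 0.00903 in limma), with a 95% interval of 1.82-fold to 2.91-fold. The 2 probe sets of Ptger4 differed by 1.24 ± 0.12 and 1.17 ± 0.20, and both passed when all probe sets were tested singly in limma (adjusted p = 0.00569 and 0.0215). The first of them had an array below 4 (log2).

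Groups that do not overlap were common on these arrays: the lowest immunized sample exceeded the highest naive one in 9.39% of genes and the reverse held in 14.0%, which makes 23.4% in all. Among the 9 genes this was so of Ptger2, Ptger4 and Alox5ap (above) and of Ptgis (below). Ptger4 minus Ptger2 averaged -0.21 ± 0.25 in immunized and 0.22 ± 0.08 in naive samples (SD, n = 5 and 3), a difference of -0.42 (exact two-sided permutation test, p = 0.0357, the smallest that 56 splits allow; adjusted p = 0.0476 over 4 pairs of genes). This call ended without the Ptger4 probe set that had an array below 4 (-0.46, adjusted p = 0.0952), and through the adjustment that setting also ended the calls of the other 2 pairs that passed (adjusted p = 0.0714 each).

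The calls of both receptors ended without naive replicate 2 (adjusted p = 0.0584 for Ptger2 and 0.0543 for Ptger4 in limma), and that of Ptger2 also without naive replicate 3 (0.0501). Over 20 alternatives in all, the adjusted p ranged from 0.000734 to 0.146 for Ptger2 and from 0.000433 to 0.137 for Ptger4.

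The stretch of 200 bases before the annotated start of each gene is shown for the pair of receptor genes, which rose together, and for Ptgs2, which spread most (RefSeq, GRCm38.p6). Each reads 5′ to 3′ along the gene's strand, and capitals mark matches to any of 7 motifs on either strand: TATAAA for the start-site box of that name, TGACG (cyclic AMP response element half-site), TGANTCA (AP-1), the NF-kB site, TTNNGCAA (C/EBP), CACGTG (E-box) and GGGCGG (GC box). The coordinates are chr14:44987911-44988110 (plus strand) for Ptger2, chr15:5244188-5244387 (minus strand) for Ptger4 and chr1:150099831-150100030 (plus strand) for Ptgs2.
Ptger2: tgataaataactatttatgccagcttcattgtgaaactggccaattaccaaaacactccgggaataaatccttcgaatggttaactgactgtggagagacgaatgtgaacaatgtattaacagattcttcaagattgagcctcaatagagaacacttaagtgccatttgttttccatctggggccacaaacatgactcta
Ptger4: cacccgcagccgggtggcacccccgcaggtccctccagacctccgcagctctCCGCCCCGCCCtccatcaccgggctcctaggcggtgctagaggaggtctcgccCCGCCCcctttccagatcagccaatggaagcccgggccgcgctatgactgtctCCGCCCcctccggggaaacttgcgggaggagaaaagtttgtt
Ptgs2: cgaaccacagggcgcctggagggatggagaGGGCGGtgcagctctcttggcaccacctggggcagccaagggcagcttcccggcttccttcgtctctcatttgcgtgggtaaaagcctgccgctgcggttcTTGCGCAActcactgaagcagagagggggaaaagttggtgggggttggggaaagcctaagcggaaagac

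Ptger2 held none of these motifs in this window. Ptger4 held 4 GC boxes, starting at positions -148, -143, -95 and -42 from the gene's start, of which the first pair share a base. Ptgs2 held a GC box at -170 to -165 and a C/EBP match at -69 to -62. A GC box occurred in 31.0% of the 32851 promoters of the table and the C/EBP motif in 7.47%, each in a stretch of the same length. A match is a string of letters and not a measured site, and a window without one says nothing of the factor. RefSeq promoters were at hand for 8 of the 10 genes, Alox5ap and Ptgis being without an entry.

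Pla2g4a encodes the cytosolic phospholipase A2 that releases arachidonic acid. It lay at 0.25, -0.41, 0.36, 0.18 and 0.45 in immunized replicates 1 to 5, against -0.18, -0.28 and -0.58 in naive replicates 1 to 3. In 4 of the 5 immunized samples it was above all naive samples, and immunized replicate 2 fell among the naive samples. The difference, 0.51 ± 0.19 (SE), did not pass (adjusted p = 0.112 in limma), but did without immunized replicate 2 (0.65, adjusted p = 0.0122), a setting in which 16.5% of all genes passed. Over 20 alternatives its adjusted p ranged from 0.0122 to 0.410.

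Ptgs2 encodes the inducible cyclooxygenase. It lay at 1.75, 0.01, -0.73, 1.96 and 0.84 in immunized replicates 1 to 5, against -0.97, -0.17 and -0.01 in naive replicates 1 to 3. Immunized replicates 1, 4 and 5 were high, replicate 2 was level with the highest naive sample, and replicate 3 lay among the naive samples, next to the lowest of them. Its range over the 8 samples, 2.94, was the widest of the 9 genes. The immunized SD was 1.14, against 0.52 in naive samples (n = 5 and 3).

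The Ptgs2 difference was 1.15 ± 0.59 (SE; adjusted p = 0.216 in limma), with a 95% interval from 0.881-fold to 5.60-fold, so a change of either direction lies within it. Its 2 probe sets gave 1.35 ± 0.73 and 0.95 ± 0.45, and both put immunized replicates 4, 1 and 5 highest, in that order. Array weights, one of 20 alternatives, brought its adjusted p to 0.0403, and 32.4% of all genes passed in that setting. Over the 20 alternatives its adjusted p ranged from 0.0403 to 0.546. The mean of 12 macrophage markers was also highest in immunized replicates 4 and 1 (0.50 and 0.42) but lower in replicate 5 (0.08). This order was not particular to macrophage markers. The fibroblast mean (0.50 and 0.33) and the endothelium mean (0.51 and 0.14) were highest in replicates 4 and 1 as well. In replicate 5 these means were -0.20 and -0.08. The part of any of these cells in the Ptgs2 values was not tested.

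By a likeness rule (the smallest root mean square difference over the 8 samples, after each gene was centred on its mean), the genes most like Ptgs2 were Ereg (0.299), which encodes the growth factor epiregulin, F7 (0.357), which encodes coagulation factor VII, and Atp8b1 (0.385), which encodes a phospholipid flippase. Ereg lay at 2.35, 0.05, -0.77, 2.71 and 0.96 in immunized replicates 1 to 5, against -0.86, -0.30 and -0.05 in naive replicates 1 to 3, with the same immunized samples high as in Ptgs2. The genes most like Ptger2 were Siglecf (0.108), a sialic acid receptor of eosinophils and some macrophages, Cd53 (0.147), a tetraspanin of leukocytes, and Ccr2 (0.161), a chemokine receptor of monocytes. Likeness was measured over all genes other than the 9 and was computed for genes with a range of at least 2.

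Ptges encodes the inducible membrane-bound prostaglandin E synthase. It lay at 0.09, 0.27, -0.26, 0.21 and -0.36 in immunized replicates 1 to 5, against -0.04, -0.03 and -0.06 in naive replicates 1 to 3. The naive samples lay close together and the immunized samples fell on both sides of them. The difference was 0.03 ± 0.15 (SE; adjusted p = 0.901 in limma), with a 95% interval from 0.807-fold to 1.30-fold. Its 3 probe sets differed by 0.15, -0.05 and 0.00, and none passed when tested singly in limma (adjusted p from 0.610 to 0.999). In immunized replicates 3 and 5 all 3 probe sets lay below 0.

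Ptgis encodes prostacyclin synthase, an enzyme of vessel walls and connective tissue. It lay at -0.26, 0.16, -0.53, -0.29 and -0.16 in immunized replicates 1 to 5, against 0.67, 0.50 and 0.66 in naive replicates 1 to 3. All immunized samples lay below all naive samples, and immunized replicate 2 came nearest to them. The difference was -0.83 ± 0.14 (SE; adjusted p = 0.0195 in limma), with a 95% interval from 0.451-fold to 0.703-fold.

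The call of Ptgis ended without immunized replicate 1 (adjusted p = 0.0605) and without naive replicates 1, 2 or 3 (0.0579, 0.0672 and 0.0593), and over 20 alternatives its adjusted p ranged from 0.00131 to 0.154 in limma. Ptges minus Ptgis averaged 0.21 ± 0.27 in immunized and -0.66 ± 0.10 in naive samples (SD, n = 5 and 3), a difference of 0.86 (exact two-sided permutation test, p = 0.0357, the smallest possible; adjusted p = 0.0476 over 4 pairs).

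Marker means of the cell types that line vessels and connective tissue are given beside Ptgis. The mean of 8 endothelium markers lay between -0.08 and 0.51 in immunized and between -0.19 and -0.07 in naive samples. That of 8 smooth muscle and pericyte markers lay between -0.54 and 0.22 in immunized and between -0.02 and 0.22 in naive samples. For 8 fibroblast markers the ranges were -0.34 to 0.50 in immunized and -0.10 to 0.01 in naive samples. From each of these lists limma called 0 genes, while at an unadjusted p under 0.05 there were 2 higher endothelium genes, 2 lower smooth muscle genes and 1 fibroblast gene in each direction. The 10 chondrocyte markers, of which 4 fell, ranged in their mean from -0.87 to 0.25 in immunized and from 0.35 to 0.63 in naive samples. The mean of 8 nucleus pulposus and notochord markers ranged from -0.82 to 0.36 in immunized and from 0.40 to 0.58 in naive samples. Of these markers 1 fell, and all 8 differences were negative. Over all genes 4.68% fell, and 10208 of 18193 differences were negative. At an unadjusted p under 0.05, 12.9% of all genes were higher and 18.2% lower. Immunized replicate 2 was highest of its group in Ptgis, in the chondrocyte mean and in the nucleus pulposus and notochord mean. This was not particular to these lists. That sample stood apart over the whole array, and it was also highest of its group in the keratinocyte mean (-0.01) and in Ptges (0.27). The zero of these log2 values is each probe set's median over the arrays, so levels are lost. The part of these cells in the result was not tested.

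Hpgd encodes the dehydrogenase that inactivates prostaglandins. It lay at -0.02, -0.23, -0.16, 0.06 and 0.16 in immunized replicates 1 to 5, against 0.04, -0.03 and -0.06 in naive replicates 1 to 3. It had the narrowest range of the 9 genes (0.385), and its groups overlapped. The difference was -0.02 ± 0.10 (SE; adjusted p = 0.905 in limma), with a 95% interval from 0.843-fold to 1.15-fold. Its 2 probe sets differed by -0.01 and -0.03. Ptgs2 minus Hpgd, a making gene set against a breakdown gene, averaged 0.80 ± 1.04 in immunized and -0.37 ± 0.57 in naive samples (SD, n = 5 and 3), and the difference of 1.17 did not pass (exact two-sided permutation test, p = 0.143, also after adjustment over 4 pairs).

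Alox5 encodes the lipoxygenase that starts leukotriene synthesis. It lay at 0.23, -0.14, 0.76, -0.17 and 0.92 in immunized replicates 1 to 5, against 0.14, -0.59 and -0.81 in naive replicates 1 to 3. Immunized replicates 3 and 5 were high, while replicates 2 and 4 lay below naive replicate 1. The difference of 0.74 ± 0.31 (SE) did not pass (adjusted p = 0.142 in limma).

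Alox5ap encodes the membrane protein that presents arachidonic acid to that enzyme. It lay at 0.41, -0.09, 0.83, 0.09 and 0.80 in immunized replicates 1 to 5, against -0.11, -0.998 and -1.05 in naive replicates 1 to 3. The groups did not overlap, though immunized replicate 2 and naive replicate 1 were nearly level. The difference was 1.13 ± 0.28 (SE; adjusted p = 0.0413 in limma), with a 95% interval of 1.41-fold to 3.39-fold.

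The Alox5ap call ended without immunized replicates 1, 3, 4 or 5 (adjusted p = 0.0949, 0.0748, 0.0550 and 0.0818), without naive replicates 2 or 3 (0.125 and 0.111), and after quantile normalization (0.0528), all in limma. Over 20 alternatives its adjusted p ranged from 0.00144 to 0.204. Alox5ap minus Alox5 averaged 0.09 ± 0.14 in immunized and -0.30 ± 0.09 in naive samples (SD, n = 5 and 3), a difference of 0.39 (exact two-sided permutation test, p = 0.0357, the smallest possible; adjusted p = 0.0476 over 4 pairs).

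**Figure D2:**
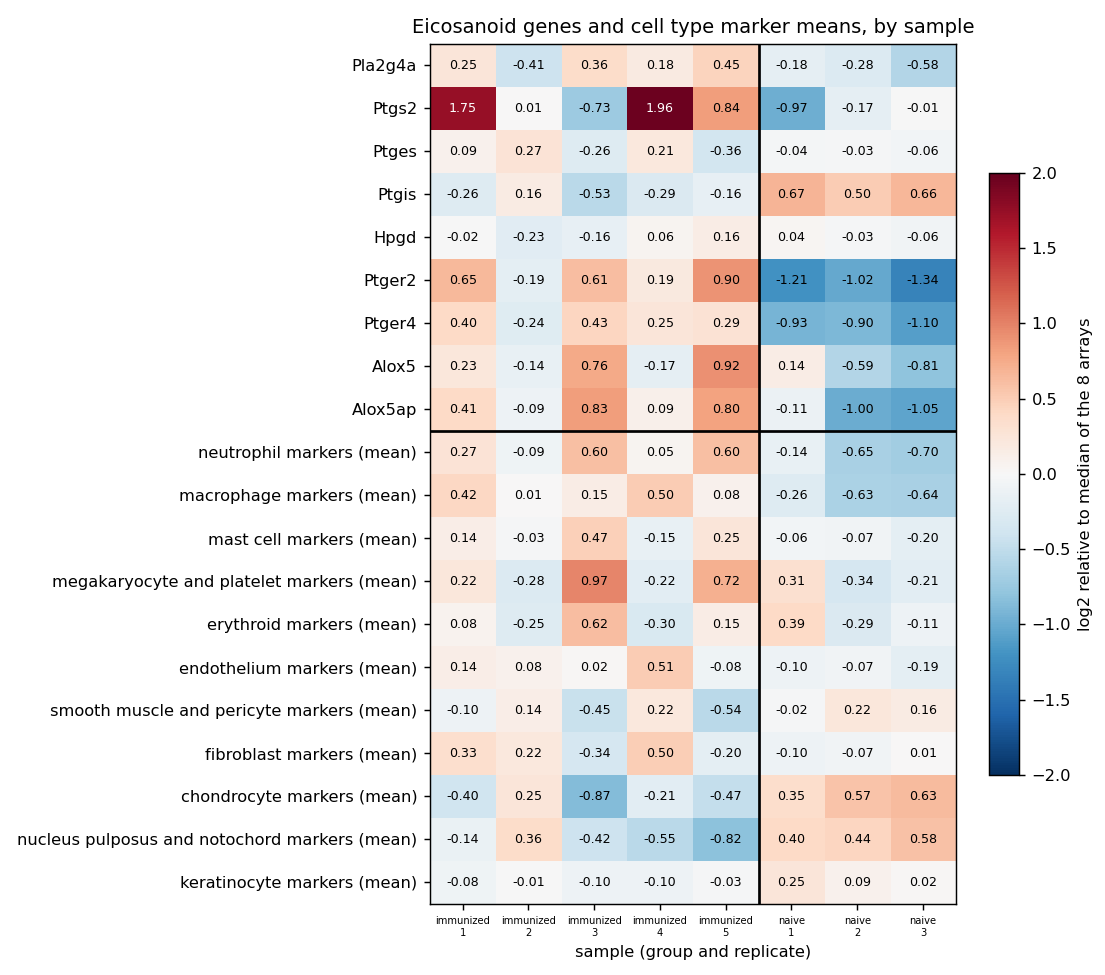
Colour and printed numbers give log2 expression (median of each probe set over the 8 arrays set to 0) for the 9 measured genes (upper block) and for the mean of each marker list (lower block), with 5 immunized samples left of the line and 3 naive samples right of it. Alox5 and Alox5ap are highest in immunized replicates 3 and 5, as are the neutrophil, mast cell, megakaryocyte and erythroid means within that group, while Ptgs2 is highest in immunized replicates 1 and 4.

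Markers of the leukocytes that make leukotrienes are given beside these genes. The mean of 8 neutrophil markers was 0.27, -0.09, 0.60, 0.05 and 0.60 in immunized replicates 1 to 5, against -0.14, -0.65 and -0.70 in naive replicates 1 to 3, and 3 of the 8 rose. Replicates 3 and 5 were highest, as in Alox5 and Alox5ap. The mean of 12 macrophage markers was 0.42, 0.01, 0.15, 0.50 and 0.08 in immunized replicates 1 to 5, against -0.26, -0.63 and -0.64 in naive replicates 1 to 3, and 4 of the 12 rose. Here replicates 4 and 1 were highest in the mean, an order unlike that of Alox5, but the mean does not stand for every macrophage marker. Adgre1, Cd68, Mpeg1, C1qa, C1qb and C1qc were highest in replicates 4 and 1. Itgam was highest in replicates 3 and 5 (1.26 and 0.77), as was Alox5. Csf1r, Mrc1, Cd163, Mertk and Marco followed neither order. Marco (-0.29) and Mertk (-0.08) had negative differences and the other macrophage markers positive ones. That of 9 mast cell markers was 0.14, -0.03, 0.47, -0.15 and 0.25 in immunized replicates 1 to 5, against -0.06, -0.07 and -0.20 in naive replicates 1 to 3, with 1 higher and 2 lower. Over all genes 4.46% rose and 4.68% fell. The groups overlapped in the mast cell mean, and replicates 3 and 5 were again highest in it. The mast cell markers went opposite ways, so their mean does not stand for all of them. By log2 difference Hdc rose (1.37), while Cma1 (-0.61) and Tpsab1 (-0.54) fell. Of those not called, Fcer1a (1.12), Ms4a2 (0.81), Kit (0.60) and Cpa3 (0.01) were positive, and Tpsb2 (-0.29) and Mcpt4 (-0.25) negative.

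Megakaryocyte and platelet markers (6 genes) and erythroid markers (5 genes) were highest in immunized replicate 3, at 0.97 and 0.62, followed among immunized samples by replicate 5, at 0.72 and 0.15, and naive replicate 1 was the highest naive sample in both, at 0.31 and 0.39. Without naive replicate 1 and immunized replicates 3 and 5, a setting chosen after the data were seen, Alox5ap was called and the other 3 calls ended in limma (adjusted p = 0.0567 for Ptger4, 0.0585 for Ptger2 and 0.0852 for Ptgis), beside 1.20% of all genes called. In Alox5ap the dropped naive replicate 1 (-0.11) was the naive sample nearest to the immunized ones, against -0.998 and -1.05 in naive replicates 2 and 3. Leaving it out favours a call of Alox5ap, so this setting is no test of these cells. Their part in the results was not tested.

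**Figure D3:**
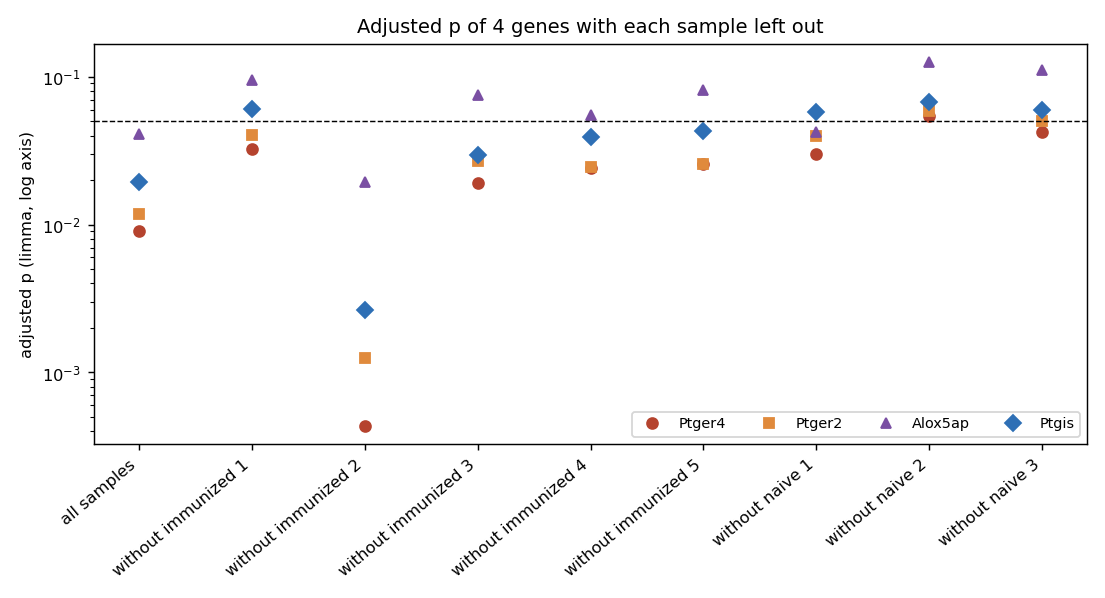
Adjusted p (limma, log axis) of the 4 genes that passed, with all samples and with each sample left out in turn. Points above the dashed line at 0.05 are lost calls, and without naive replicate 2 all 4 lie above it.

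The number of called genes among the 9 was 4 with all samples. It was 0 when naive replicate 2 was left out, 1 when naive replicate 3 was, 2 when immunized replicate 1 was, and 0 when both samples with joined numbers were. Unadjusted (p under 0.05 in limma), 4 genes were higher and 1 lower when naive replicate 2 was left out. Without both joined samples these counts were 3 and 1. The share of all genes at that unadjusted threshold was not computed for these settings, so these counts have no background to be read against. With all samples that share was 12.9% higher and 18.2% lower. Over all genes, 0.115% were called when naive replicate 2 was left out, 0.967% when naive replicate 3 was, 0.813% when immunized replicate 1 was, and 0% when both joined samples were, beside 9.14% with all samples.

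Other genes of these pathways were taken from 6 lists, with 56 of 62 genes measured. Of these, 4 rose, 3 fell and 49 did not pass, beside 4.46% of all genes that rose and 4.68% that fell. Their median difference was -0.03, against -0.04 over all genes.

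**Figure D4:**
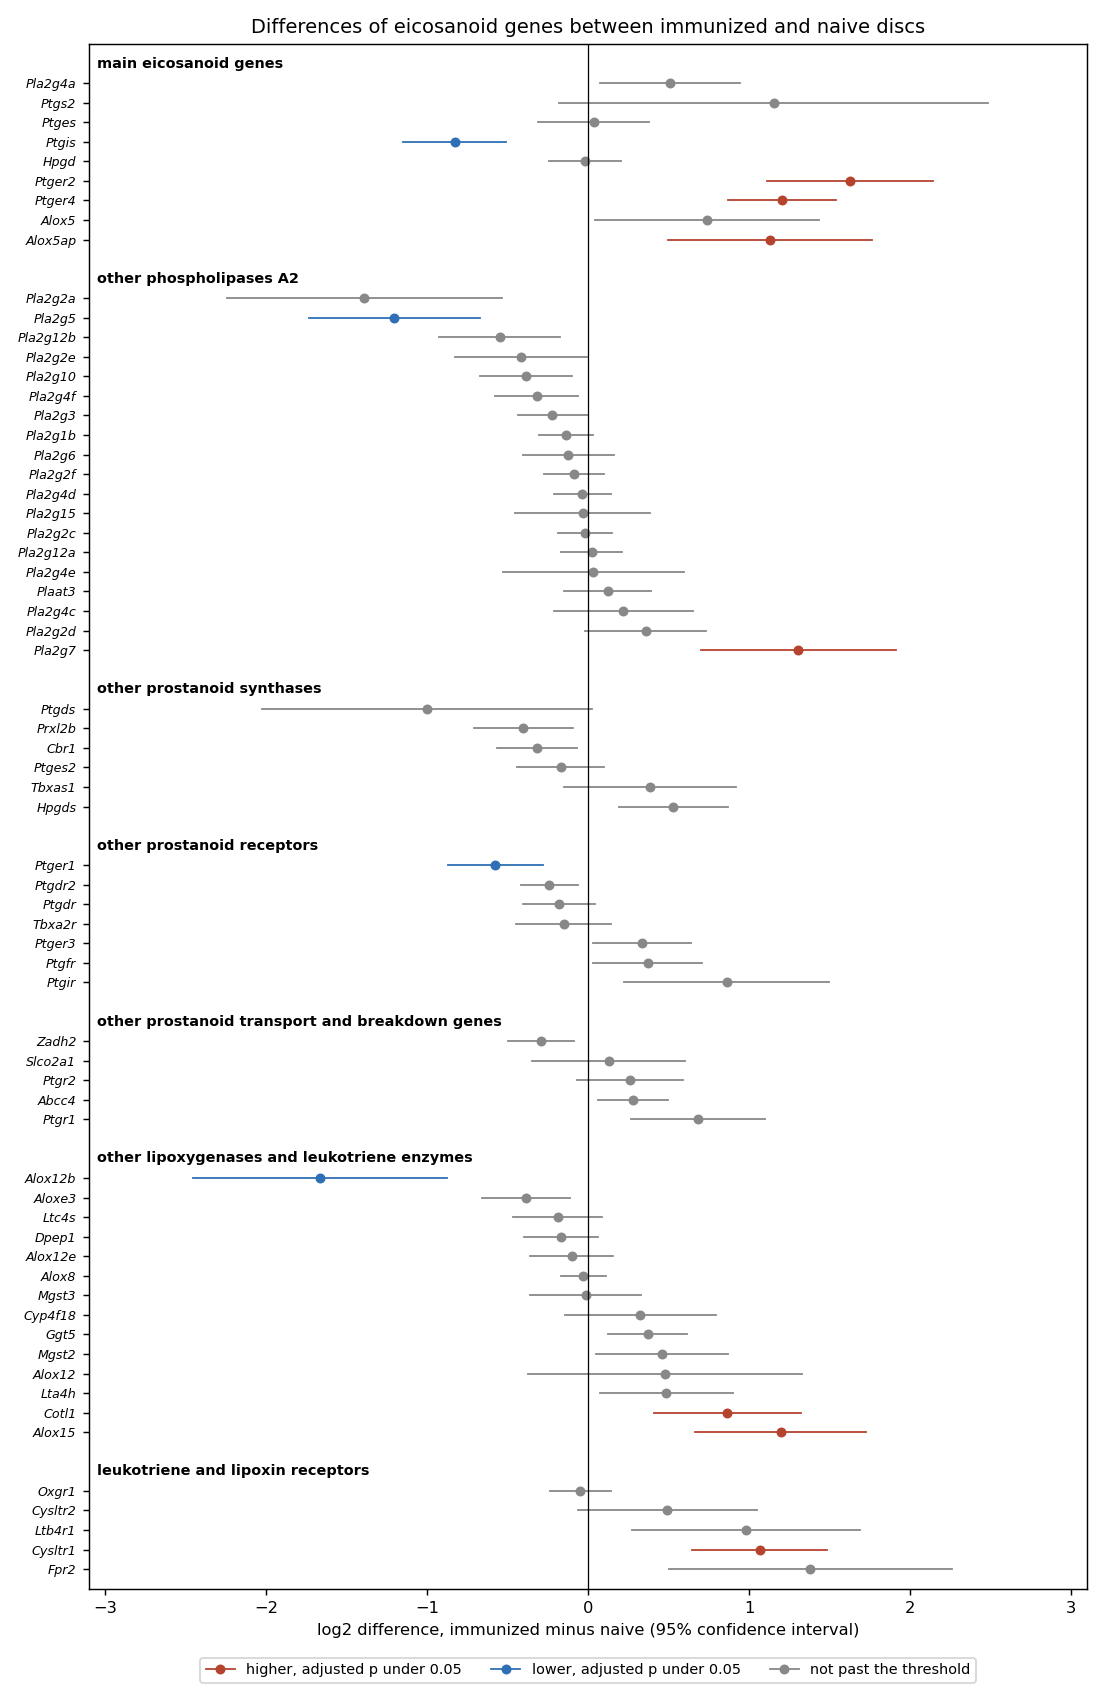
Points give the log2 difference, immunized minus naive, and lines its 95% confidence interval, for the 9 genes and for 56 other genes of the pathways grouped by role. Red marks genes past the threshold and higher, blue those lower, and grey the rest.

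Of 19 other phospholipase A2 genes, 1 rose and 1 fell (median difference -0.09). Pla2g7, which encodes the platelet-activating factor acetylhydrolase made by macrophages, rose by 1.30 ± 0.27 (SE; adjusted p = 0.0277 in limma). It lay at 0.55, -0.24, 0.24, 1.17 and 0.50 in immunized replicates 1 to 5, against -1.10, -0.72 and -0.76 in naive replicates 1 to 3, and the groups did not overlap. Pla2g5, which encodes a secreted phospholipase, fell by 1.20 on the log2 scale (SE 0.23; adjusted p = 0.0255 in limma). It lay at -0.39, 0.16, -0.92, -0.16 and -0.24 in immunized replicates 1 to 5, against 0.54, 1.20 and 0.93 in naive replicates 1 to 3.

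Limma called 0 of 6 other prostanoid synthase genes, with 1 upward and 2 downward at an unadjusted p under 0.05. Hpgds, the prostaglandin D synthase of blood cells, had the largest moderated t, with a difference of 0.53 ± 0.15 (SE; adjusted p = 0.0576 in limma). Limma called 0 of 5 transport and breakdown genes, with 2 upward and 1 downward at an unadjusted p under 0.05. At that threshold 12.9% of all genes were higher and 18.2% lower. Ptgr1, a reductase that inactivates leukotriene B4 and prostaglandin metabolites, differed by 0.68 ± 0.18 (SE; adjusted p = 0.0515 in limma).

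Of 7 other prostanoid receptor genes, 0 rose and 1 fell. Ptger1, a prostaglandin E2 receptor that raises intracellular calcium, fell by 0.58 on the log2 scale (SE 0.13; adjusted p = 0.0348 in limma). It lay at -0.23, -0.03, -0.18, -0.10 and -0.13 in immunized replicates 1 to 5, against 0.80, 0.35 and 0.18 in naive replicates 1 to 3. The groups did not overlap, and naive replicate 1 was the highest sample. The difference was -0.40 without it (adjusted p = 0.0596), and leaving out any other sample but immunized replicate 2 also ended the call (adjusted p from 0.0524 to 0.0889 in limma). The 2 probe sets differed by -0.62 and -0.54, and the first had an array below 4 (log2). Ptger3, the remaining prostaglandin E2 receptor gene, differed by 0.33 ± 0.13 (SE; adjusted p = 0.134 in limma).

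Of 14 other lipoxygenase and leukotriene enzyme genes, 2 rose and 1 fell (median difference 0.15). Alox15, which encodes a lipoxygenase of macrophages and eosinophils, rose by 1.19 ± 0.23 (SE; adjusted p = 0.0261 in limma). It lay at 0.52, 0.01, 0.96, -0.01 and 0.49 in immunized replicates 1 to 5, against -0.45, -1.10 and -0.85 in naive replicates 1 to 3. Cotl1, which encodes an actin-binding protein that also binds the Alox5 enzyme, rose by 0.86 ± 0.20 (SE; adjusted p = 0.0367 in limma). Its 6 probe sets differed by 0.45 to 1.39, all upward, and the 1 probe set whose name does not mark cross-hybridization gave 0.45 (adjusted p = 0.0553 in limma without such probe sets).

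Alox12b, which encodes a lipoxygenase of the epidermal barrier, fell by 1.67 on the log2 scale (SE 0.35; adjusted p = 0.0288 in limma). It lay at -0.57, 0.52, -0.52, -1.24 and -0.94 in immunized replicates 1 to 5, against 1.33, 0.75 and 1.27 in naive replicates 1 to 3, and immunized replicate 2 was the highest of its group. Of 11 keratinocyte markers, a list added after the data were seen, 2 fell, and their mean ranged from -0.10 to -0.01 in immunized and from 0.02 to 0.25 in naive samples. Of these markers 0 had a probe set at 8 or more (log2) on its lowest array, and their median difference was -0.15. Over all genes 4.68% fell, and the median difference was -0.04. The part of such cells in the result was not tested.

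Of 5 leukotriene and lipoxin receptor genes, 1 rose, and 4 had a positive difference (median 0.98). Over all genes 7985 of 18193 differences were positive (median -0.04). Cysltr1, a receptor for cysteinyl leukotrienes, rose by 1.06 ± 0.19 (SE; adjusted p = 0.0203 in limma). It lay at 0.66, -0.12, 0.24, 0.46 and 0.21 in immunized replicates 1 to 5, against -1.11, -0.63 and -0.58 in naive replicates 1 to 3. Its 2 probe sets differed by 0.98 and 1.15. The number called among the 56 genes was 7 with all samples, and 0 when immunized replicate 1, naive replicate 2 or naive replicate 3 was left out, where limma's unadjusted p under 0.05 gave 15 higher and 13 lower, 14 and 10, and 8 and 13. In these 3 settings 0.813%, 0.115% and 0.967% of all genes were called at the adjusted threshold. The unadjusted share of all genes was not computed for them, so these unadjusted counts have no background to be read against. With all samples the unadjusted share was 12.9% higher and 18.2% lower, beside 15 and 14 of the 56 genes. The number called was 1 when immunized replicate 5 was left out (2.17% of all genes). It was 4 when immunized replicate 3 (4.17%) or naive replicate 1 (2.06%) was left out. It was 19 when immunized replicate 2 was (16.5%), beside 9.14% with all samples. Over 20 alternatives the adjusted p of the 7 genes reached 0.159 (Pla2g5), 0.157 (Pla2g7 and Ptger1), 0.162 (Alox15), 0.170 (Alox12b), 0.196 (Cotl1) and 0.145 (Cysltr1), and no sign turned.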

How the data were processed

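The table deposited by the authors holds log2 values of probe sets on 8 arrays. The submitters' processing notes name RMA (robust multi-array average), with no version in the sources used here. The log base is that of RMA. The deposited values also show a median of 0 for every probe set over the 8 arrays (within 5.0e-07), so levels are lost. The spacing of the printed numbers gives a coarse level for the lowest array: among the 14 probe sets, 6 at 8 or more (log2), 7 from 4 to 8 and 1 below 4. No probe set was filtered out in the main setting. The number of arrays limits the precision, and no batch or scan date was at hand.

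Probe sets were named through the platform annotation and a RefSeq table (GRCm38.p6). Of the probe sets, 34945 named 1 gene, and 64 controls were left out. Pla2g16 was matched as Plaat3. Immunized samples were compared with naive samples with lmFit and eBayes of limma 3.58.1 under R 4.3.3 (two-sided), on gene means and on all probe sets. On simulated data for 18193 genes, limma called 84% of genes given a true change of 1 (log2) and 99% of those given 2. The simulated noise was independent between genes and held no sample that stood apart, unlike these arrays. These shares therefore test the code and do not measure the power of the comparison. Pairs of genes were compared with exact permutation tests (scipy 1.17.1), and the pair with Ptgs1 could not be formed.

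All 9 measured genes are described. From each other list the genes past the threshold were named or, where there were 0, the gene with the largest moderated t; Ptger3 was added after its value was seen. The genes and lists were chosen with earlier results of these data known. Alternatives were other normalizations, probe set choices, variance models, weighted arrays, a replicate block, a threshold of 0.1 and samples left out.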

Additional observations from a re-analysis of the deposited data

Results flagged for a closer look

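Ptger4 in immunized replicate 2 stood apart. Its value of -0.24 lay below the other 4 immunized samples, with a gap of 0.732 of the group's whole range. The same sample was lowest among the immunized samples in Ptger2, Pla2g4a, Alox5ap and Hpgd and highest in Ptgis and Ptges. It also stood apart over the whole array, with correlations of 0.03, -0.31, -0.11 and -0.48 with immunized replicates 1, 3, 4 and 5. Those with naive replicates 1 to 3 were -0.20, 0.23 and 0.30. When this sample was left out, 3003 genes were called, against 1663 with all samples. Without it the Ptger4 difference was 1.32, against 1.20 with all samples. Among 18 genes checked for a stray immunized sample this was the only 1, and chance alone picks out about 1 group in 20. The 3 naive samples were too few for such a check.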

How the results depend on the processing

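Among the 9 genes, 4 were called with all samples, 7 with array weights, 1 without naive replicate 1 and immunized replicates 3 and 5 (a setting chosen after the data were seen), and in limma 0 with the replicate number as a block or without both samples with joined numbers (3 higher and 1 lower, unadjusted, in each), with a range of 0 to 5 when single samples were left out. Of the 14 probe sets, 5 were called, 3 after quantile normalization (3.16% of all probe sets, against 6.19%), 2 in the added setting (1.21%), and 0 with the block or without both joined samples in limma (4 higher and 1 lower, unadjusted, in each), with a range of 1 to 6. Of the 56 other genes, 7 were called, 26 with array weights (32.4% of all genes), 23 at a threshold of 0.1 (20.8%), 2 in the added setting (1.20%), and 0 with the block (11 higher and 7 lower, unadjusted) or without both joined samples (6 and 10) in limma, with a range of 0 to 19. Over all genes 1663 were called, against 5900 with array weights and 7 with the block. Shares of all genes or probe sets at an unadjusted p under 0.05 were not computed for the block or without the joined samples. The unadjusted counts in those settings therefore have no background to be read against. Deviations of same-numbered samples correlated at -0.05, 0.24 and -0.10, within the range of -0.38 to 0.33 of the other combinations. This gave no sign that the replicate numbers pair the samples, but so few values cannot exclude it.

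Without probe sets that had an array below 4 and, as an added setting, with each gene's probe sets of highest level, Ptger4 minus Ptger2 differed by -0.46 (adjusted p = 0.0952), which through the adjustment also moved Ptges minus Ptgis (0.86) and Alox5ap minus Alox5 (0.39) to 0.0714. With single samples left out the pair differences ranged from 0.85 to 1.52 (Ptgs2 minus Hpgd), 0.79 to 0.96 (Ptges minus Ptgis), 0.34 to 0.44 (Alox5ap minus Alox5) and -0.49 to -0.32 (Ptger4 minus Ptger2). Only Ptges and Hpgd, both near 0, turned sign. With single samples left out, Ptges ranged from -0.036 to 0.121 and Hpgd from -0.069 to 0.027. Ptges was at -0.0014 with the median of probe sets, -0.036 without immunized replicate 2 and -0.023 without immunized replicate 4. Hpgd was at 0.016 with array weights, 0.027 and 0.0092 without immunized replicates 2 and 3, and 0.0082 without naive replicate 1. The cause of these changes was not tested. Quantile normalization changed the split of calls over all genes to 541 higher and 369 lower, against 812 and 851.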

Other observations

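Some genes of the lists that did not pass had large differences, and the 4 given here were chosen after their values were seen. Pla2g2a, which encodes a secreted phospholipase A2, lay at -0.48, 0.48, -1.56, -0.78 and -0.49 in immunized replicates 1 to 5, against 0.60, 0.73 and 1.15 in naive replicates 1 to 3. Its difference was -1.39 ± 0.38 (SE; adjusted p = 0.0518 in limma), beside that of Pla2g5 in the same direction. Fpr2, which encodes a formyl peptide receptor that also binds lipoxin, differed by 1.38 ± 0.39 (adjusted p = 0.0572), with naive replicate 1 (-0.02) far above the other naive samples (-1.38 and -1.52). Ltb4r1, a receptor for leukotriene B4, differed by 0.98 ± 0.31 (adjusted p = 0.0768), with immunized replicates 3 and 5 highest (0.90 and 1.07), as in Alox5. Ptgir, the prostacyclin receptor gene, differed by 0.86 ± 0.28 (adjusted p = 0.0823), with the same 2 samples highest (0.94 and 0.97), while the synthase gene Ptgis fell.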
